A study of Mus musculus with 12 samples.

Results

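The genes described here are 10 genes that mark macrophages or their states of activation, read in subcutaneous tumors grown from the mouse lung cancer line mTc11 with and without knockdown of *Filip1l*. They were taken by name, without a threshold on any measured value: *Adgre1*, *Csf1r* and *Cd68* as pan-macrophage genes, *Csf1* as their growth factor, *Nos2*, *Arg1*, *Mrc1* and *Cd163* as polarization genes, and *Spp1* and *Trem2* as genes of lipid-associated macrophages. All 10 were among the 15687 genes listed. The comparison asked whether the polarization genes moved with the pan-macrophage genes or apart from them.

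RNA was sequenced from 12 tumors. The 6 CTL tumors came from mTc11 cells carrying a control hairpin (shControl, a scrambled shRNA) and are labelled as wild type. The 6 *Filip1l*-knockdown tumors came from mTc11 cells carrying a *Filip1l* shRNA. Both hairpins were delivered by lentivirus, and resistant cells were kept as mixed clones after puromycin selection. Lines were made with each of 2 *Filip1l* shRNAs, and the labels do not say which of them grew the tumors sequenced here. Every host was a male C57BL6/J mouse, 8 weeks old at injection, with an intact immune system, and each received 1000000 cells under the skin. All tumors were taken at day 24 and frozen whole, so the RNA is a mixture of cancer cells and host cells, macrophages among them. The labels call the tumors of a group biological replicates.

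Macrophages are phagocytes that most solid tumors hold in large numbers. They need signaling through the receptor CSF1R, whose ligands are CSF1 and IL34, to survive. After exposure to interferon-γ or bacterial products they make inducible nitric oxide synthase (NOS2), and after exposure to IL4 or IL13 they make arginase 1 (ARG1) and the mannose receptor MRC1. NOS2 and ARG1 use the same substrate, arginine. CD163 takes up haemoglobin bound to haptoglobin, TREM2 binds lipids and signals through TYROBP, and *Spp1* encodes osteopontin, a secreted ligand of integrins and CD44. Of these genes, *Csf1*, *Arg1*, *Nos2* and *Spp1* are also made by cells other than macrophages, including epithelial tumor cells, fibroblasts or neutrophils. In whole tumors, more cells of a type and more RNA per cell cannot be told apart.

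RefSeq's promoter windows (build GRCm38.p6) held 6 of the 10 members. *Adgre1*, *Csf1r*, *Arg1* and *Nos2* had no entry. The 250 bases before the start are shown, 5′ to 3′ on the gene's strand, for the 4 of the 6 that passed the test between groups, 1 pan-macrophage gene, the growth factor, 1 polarization gene and the most abundant member, with motif matches in capitals.
Cd68, chr11:69666171-69666420, minus strand: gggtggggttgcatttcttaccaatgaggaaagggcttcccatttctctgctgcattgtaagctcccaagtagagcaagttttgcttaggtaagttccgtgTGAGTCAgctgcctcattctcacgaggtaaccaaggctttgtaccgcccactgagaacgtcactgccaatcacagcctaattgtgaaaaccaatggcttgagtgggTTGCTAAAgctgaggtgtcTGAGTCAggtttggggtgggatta
Csf1, chr3:107760470-107760719, minus strand: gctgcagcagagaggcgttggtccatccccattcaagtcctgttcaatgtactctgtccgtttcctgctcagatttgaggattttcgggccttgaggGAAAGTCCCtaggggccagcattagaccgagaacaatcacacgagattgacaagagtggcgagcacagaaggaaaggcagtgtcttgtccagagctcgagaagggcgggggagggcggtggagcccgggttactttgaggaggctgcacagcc
Cd163, chr6:124304401-124304650, plus strand: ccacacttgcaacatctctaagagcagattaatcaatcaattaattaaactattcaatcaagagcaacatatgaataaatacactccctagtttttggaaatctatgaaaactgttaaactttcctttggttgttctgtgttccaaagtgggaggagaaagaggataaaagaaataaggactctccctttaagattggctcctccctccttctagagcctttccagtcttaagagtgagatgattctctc
Spp1, chr5:104434861-104435110, plus strand: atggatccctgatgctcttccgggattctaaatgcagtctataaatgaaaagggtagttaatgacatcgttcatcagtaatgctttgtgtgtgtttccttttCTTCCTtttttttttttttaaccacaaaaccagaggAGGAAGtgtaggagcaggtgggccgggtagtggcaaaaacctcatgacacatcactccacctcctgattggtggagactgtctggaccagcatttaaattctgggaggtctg
The motifs were searched on both strands: AGGAAG (the Ets core within PU.1 sites), TGANTCA (AP-1), TTGCNNAA (C/EBP), GGGNNTTTC (the start of NF-κB sites), TTCNNNGAA (STAT) and CACGTGAC (the E-box of lysosomal genes). *Cd68* held 2 AP-1 matches and 1 C/EBP match, *Csf1* 1 NF-κB match, *Spp1* 2 Ets core matches at the first of its 2 annotated starts, and *Cd163* held 0 of the 6 motifs; no matches in these windows overlapped. Among 27025 promoter windows of the same length, 29.2% held the Ets core, 6.87% AP-1, 9.55% C/EBP, 3.79% NF-κB, 7.18% STAT and 1.89% the E-box. A match describes letters in the window and no binding was measured.

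In GENCODE's annotation of the same build, the genes on which the group differences turn lie as follows: *Nos2* (ENSMUSG00000020826) at chr11:78920787-78960254 on the plus strand, *Cd163* (ENSMUSG00000008845) at chr6:124304656-124330527 on the plus strand, *Spp1* (ENSMUSG00000029304) at chr5:104435118-104441050 on the plus strand, *Cd68* (ENSMUSG00000018774) at chr11:69664213-69666153 on the minus strand and *Csf1* (ENSMUSG00000014599) at chr3:107741048-107760469 on the minus strand.

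Values are the authors' normalized counts, which compare a gene between tumors but not one gene with another. The number of reads on listed genes ran from 17834745 to 29502069 in the CTL tumors and from 25460564 to 32419578 in the knockdown tumors. The lowest member value, *Cd163* in CTL tumor 5, rested on 11 reads, and that tumor was also the shallowest. *Filip1l* itself ranged from 1983 to 2542 in CTL and from 1670 to 2184 in knockdown tumors (log2 fold change -0.26, adjusted p = 0.00998 in limma). The groups overlapped in this targeted gene through knockdown tumor 1 (2184), and the other 5 knockdown tumors were below the CTL range. Over all genes, 21.1% were higher and 20.7% lower in knockdown tumors at an adjusted p under 0.05. The share that also passed an absolute log2 fold change of 1 was 6.20% for higher and 3.97% for lower. The groups did not overlap, with all knockdown tumors above, in 10.6% of genes, and with all knockdown tumors below in 10.9%. Of the tissue's own markers, *Nkx2-1*, which encodes the lung factor TTF1, had a median of 14.5 in CTL and 22.7 in knockdown tumors. Its log2 fold change of 0.88 did not pass (adjusted p = 0.443 in limma). *Sftpc*, which encodes a surfactant protein, had medians of 1.32 in CTL and 30.8 in knockdown tumors (log2 fold change 2.23, adjusted p = 0.148 in limma). Both groups held tumors in which it was listed at 0. *Sftpb*, another surfactant gene, had medians of 22.0 and 156 (log2 fold change 2.80, adjusted p = 0.0463 in limma). Its groups overlapped, at 0.947 to 94.1 in CTL and 17.6 to 760 in knockdown tumors. Only 3 of the 6 knockdown tumors were above the CTL range, and an exact permutation test of the labels gave p = 0.0606. Knockdown tumor 1 stood apart. It was the highest of all 12 tumors for 6 of the 10 members, and values without it are given beside the results it moved most.

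Of the 10 members, 3 were higher in knockdown tumors at an adjusted p under 0.05 (*Nos2*, *Cd163* and *Cd68*), 2 were lower (*Spp1* and *Csf1*), and 5 did not pass. *Nos2* and *Cd163* also passed the fold threshold upward, and *Spp1* passed it downward. The shares of all genes were 21.1% higher and 20.7% lower, and 6.20% and 3.97% with the fold threshold. The groups did not overlap for 2 members, *Nos2* (knockdown tumors above) and *Spp1* (knockdown tumors below), beside 10.6% and 10.9% of all genes. The members' median log2 fold change was 0.18, beside 0.0078 for all genes tested. The 3 pan-macrophage genes had log2 fold changes of 0.11 to 0.47. *Nos2* rose 6.89-fold and *Spp1* fell to a level 2.52-fold below that of the CTL tumors.

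**Figure D1:**
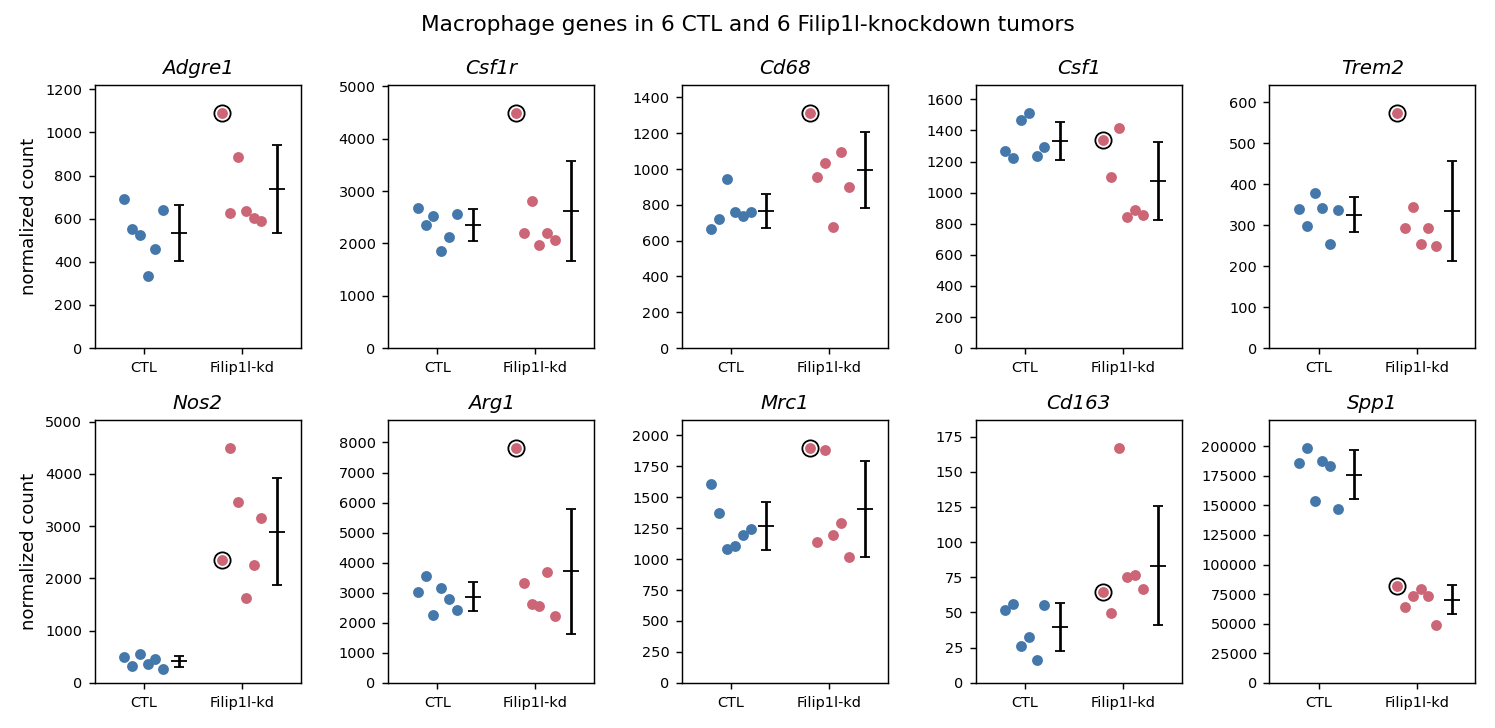
Normalized counts of the 10 members in each tumor, on linear axes that start at 0; points are tumors (blue CTL, red *Filip1l*-knockdown), the bar beside each group is its mean and SD (n = 6), and a black ring marks knockdown tumor 1. *Nos2* and *Spp1* are the panels in which the groups separate, and the ringed tumor lies above all others for *Adgre1*, *Csf1r*, *Cd68*, *Trem2*, *Arg1* and *Mrc1*.

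*Adgre1* encodes F4/80, the surface antigen most used to count mouse macrophages. Its normalized count in CTL tumors was 332 at the lowest, 537 at the median and 692 at the highest, and in knockdown tumors 589.6, 631 and 1089. Every knockdown tumor was above the CTL median, but only tumors 1 and 3 were above the CTL range. This gave a log2 fold change of 0.47 (SE 0.19, 95% interval 0.07 to 0.87), with an adjusted p of 0.0590 in limma and an unadjusted p of 0.0563 in the exact permutation test, two-sided over all 924 arrangements of the labels. Without knockdown tumor 1 it was 0.35 (adjusted p = 0.112). Without CTL tumor 1 or CTL tumor 6 the adjusted p came to 0.0356 and 0.0491.

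*Csf1r*, the receptor for CSF1 and IL34, had a lowest, median and highest count of 1857, 2437 and 2682 in CTL and of 1973, 2198 and 4489.7 in knockdown tumors. The highest value was that of knockdown tumor 1, and the other 5 knockdown tumors lay between 1973 and 2807, close to the CTL range. Between groups the log2 fold change was 0.11 (95% interval -0.26 to 0.48, adjusted p = 0.665 in limma), and it changed sign to -0.06 when knockdown tumor 1 was left out.

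*Cd68*, a membrane glycoprotein of endosomes and lysosomes in macrophages, ran from 663 through a median of 747 to 942 in CTL tumors, and from 678 through 994 to 1312 in knockdown tumors. Of the knockdown tumors, 4 were above the CTL range, and tumor 4 was near its bottom. Its log2 fold change was 0.36 (SE 0.13, adjusted p = 0.0401 in limma, exact permutation p = 0.0390). This call was not stable. It was lost, with adjusted p up to 0.0863, when any single tumor other than CTL tumor 3, knockdown tumor 4 or knockdown tumor 6 was left out; without knockdown tumor 1 the log2 fold change was 0.28 (adjusted p = 0.0743).

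The wider list of 19 pan-macrophage and mononuclear phagocyte genes was in the table in full, with none at 0 in any tumor. In knockdown tumors 2 of its genes rose, 0 fell and 17 did not pass the test, with a median log2 fold change of 0.11. Over all genes, 21.1% were higher and 20.7% lower. The risen genes were *Cd68* and *Cd14*, a co-receptor for bacterial lipopolysaccharide (log2 fold change 0.31, adjusted p = 0.0195). The complement genes *C1qa*, *C1qb* and *C1qc*, which tissue macrophages make in quantity, had log2 fold changes of -0.12, -0.07 and -0.10, and *Spi1*, which encodes the myeloid factor PU.1, had 0.31 (adjusted p = 0.119). The summed normalized count of the list lay between 45447.5 and 61100.1 in CTL tumors, between 41464.4 and 57964.6 in knockdown tumors 2 to 6, and at 97807.4 in knockdown tumor 1. Without that tumor the list's median log2 fold change was -0.04, with 1 gene higher and 1 lower.

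**Figure D2:**
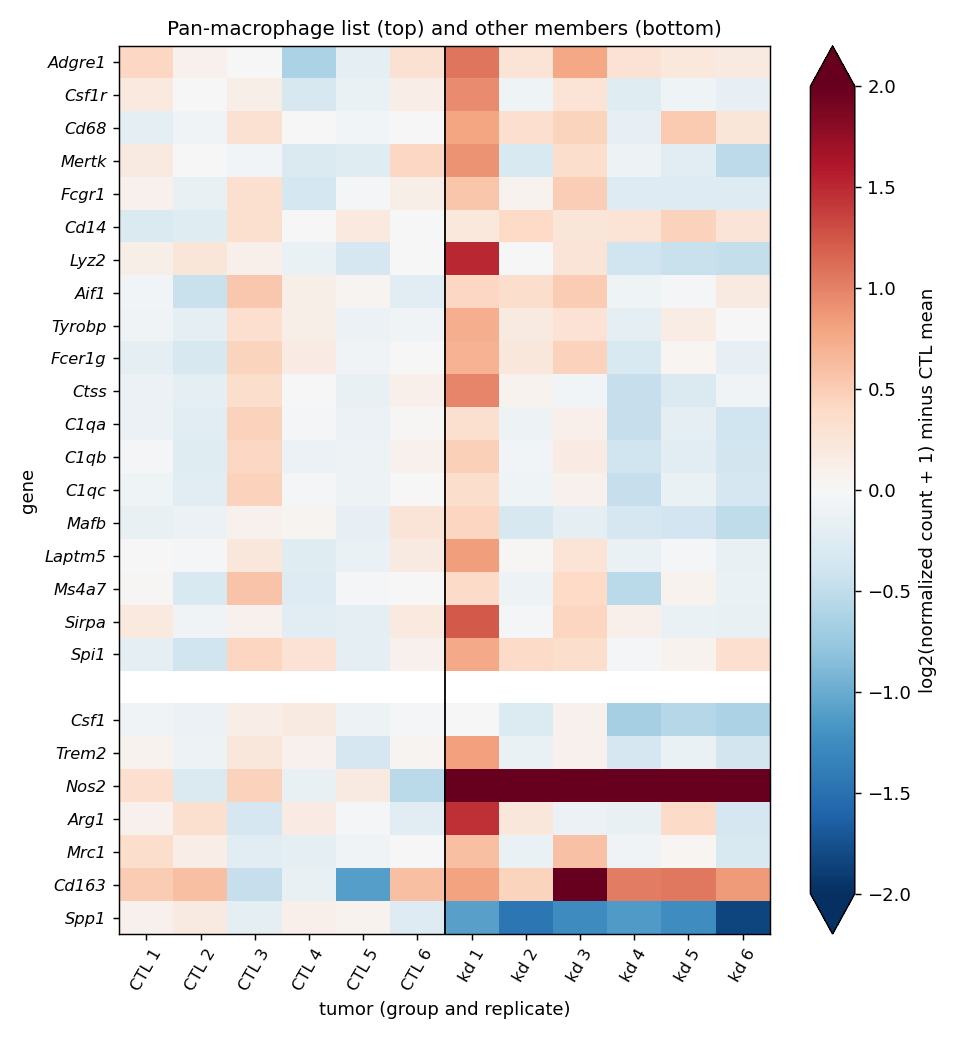
Deviation of each tumor from the CTL mean, as log2(normalized count + 1), for the 19 genes of the pan-macrophage list (top block) and the 7 other members (bottom block); columns are the 6 CTL and 6 *Filip1l*-knockdown (kd) tumors, and colors are clipped at 2 in either direction. The column of knockdown tumor 1 is red through most of the top block, whereas the rows of *Nos2* and *Spp1* split at the line between the groups.

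*Csf1* encodes the main growth factor of macrophages and fell slightly. Its lowest, median and highest counts were 1222, 1283 and 1511 in CTL and 842, 996 and 1413 in knockdown tumors. Knockdown tumors 2, 4, 5 and 6 were below the CTL range, and tumors 1 and 3 were within it. Its log2 fold change was -0.34 (SE 0.13, adjusted p = 0.0492 in limma, exact permutation p = 0.0563). The adjusted p stayed under 0.05 when knockdown tumor 1 (0.0154) or knockdown tumor 3 (0.0119) was left out, and passed it when any of the other 10 tumors was, up to 0.110.

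*Il34*, the second ligand of the receptor, moved the other way: 191 to 276 in CTL and 229 to 436 in knockdown tumors, a log2 fold change of 0.53 (adjusted p = 0.0157, or 0.0546 with trends on GC content and length removed). Among 8 genes of CSF1 receptor ligands and colony-stimulating factors, 2 rose and 2 fell, with a median of 0.14. The shares of all genes were 21.1% higher and 20.7% lower. Without knockdown tumor 1 the list had 2 higher and 3 lower and a median of -0.05. The others were *Csf3r*, the receptor for granulocyte colony-stimulating factor, which rose by 1.33 on the log2 scale (adjusted p = 3.02e-05), and its ligand *Csf3*, which fell by 1.55 (adjusted p = 0.00904) from a CTL mean of only 21.3 ± 10.1 (SD, n = 6) to 7.27 ± 4.67 (SD, n = 6).

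*Nos2*, inducible nitric oxide synthase, had the largest fold change of the members. In CTL tumors its normalized count was 274 at the lowest, 404 at the median and 549 at the highest. In knockdown tumors it was 1632, 2758 and 4499.7. The lowest knockdown tumor (tumor 4) was therefore well above the highest CTL tumor, and the highest was tumor 2, not tumor 1. On the log2 scale the rise was 2.78 (SE 0.23, 95% interval 2.30 to 3.27), with an adjusted p of 6.43e-07 in limma and an exact permutation p of 0.00216, the smallest that 6 against 6 tumors can give. Without any single tumor it remained between 2.64 and 2.93.

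Of 13 classical activation genes in the table, 4 rose and 2 fell, beside the 21.1% and 20.7% of all genes, and the median log2 fold change was 0.33. With *Nos2* rose *Tnf*, a proinflammatory cytokine (log2 fold change 1.48, adjusted p = 6.29e-05), *Cxcl9*, an interferon-induced chemokine for T cells (1.39, adjusted p = 0.000459), and *Il1b* (0.67, adjusted p = 0.0199). *Ptgs2*, which encodes cyclooxygenase-2, fell by 1.03 (adjusted p = 0.0155), and the feedback inhibitor *Socs3* fell by 0.31 (adjusted p = 0.00346). The costimulatory genes *Cd86* (0.02, adjusted p = 0.963) and *Cd80* (-0.35, adjusted p = 0.259) did not pass, nor did *Il12b* (0.33, adjusted p = 0.599), *Il6* (0.60, adjusted p = 0.236) or the interferon-induced chemokine *Cxcl10* (0.39, adjusted p = 0.172). *Marco* was not in the table.

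The genes that feed or share the NOS2 reaction were read as a list of 14 genes of arginine uptake and use. Of these, 5 rose and 1 fell, beside 21.1% higher and 20.7% lower of all genes. *Gch1* makes the cofactor tetrahydrobiopterin, which NOS2 needs. It ranged from 1121 to 1410 in CTL and from 2552 to 4239 in knockdown tumors, without overlap (log2 fold change 1.49, adjusted p = 2.23e-07). *Gch1* lies on chromosome 14, whose median difference between groups was 0.38 on the log2 scale. Under the alternatives that keep all tumors its log2 fold change was 1.11 to 1.53 (adjusted p up to 3.86e-06 in limma). *Odc1*, the first enzyme of polyamine synthesis, rose by 0.40 (adjusted p = 2.34e-05), and *Asl*, which regenerates arginine, by 0.33 (adjusted p = 0.0112). The enzymes that degrade methylated arginines, which inhibit nitric oxide synthases, went in opposite directions: *Ddah1* rose by 0.67 (adjusted p = 6.95e-05) and *Ddah2* fell by 1.29 (adjusted p = 6.42e-06). The arginine transporters *Slc7a1* (-0.01, adjusted p = 0.944) and *Slc7a2* (-0.18, adjusted p = 0.641), the synthetic enzyme *Ass1* (0.15, adjusted p = 0.432) and mitochondrial *Arg2* (0.78, adjusted p = 0.117) did not pass, although without knockdown tumor 1 *Slc7a2* fell by 0.47 (adjusted p = 0.0312).

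Markers of other cells that can make these transcripts also differed between the groups. Of 9 neutrophil markers 7 were higher and 0 lower (median log2 fold change 1.33), or 6 and 1 without knockdown tumor 1. Over all genes, 21.1% were higher and 20.7% lower. The groups did not overlap for *S100a8*, *S100a9*, *Csf3r*, *Cxcr2* and *Retnlg*, which were higher in all 6 knockdown tumors, as were 10.6% of all genes. The summed count of all 9 was 1152 to 2066 in CTL, 1384.5 to 2190.0 in knockdown tumors 2 to 6 and 3723 in knockdown tumor 1, and none was at 0. The sum includes *Mmp9*, whose mean was 1076 in CTL and 765 in knockdown tumors (adjusted p = 0.116). Of 7 epithelial markers 6 were higher and 0 lower (median 1.45). The epithelial sum was 135655 to 176354 in CTL and 190752 to 355170 in knockdown tumors, with knockdown tumor 1 the lowest of the latter. The part of either in the *Nos2* result was not tested. The 4 markers of all leukocytes, *Ptprc*, *Coro1a*, *Cd53* and *Cd52*, had log2 fold changes of 0.03 to 0.23, and 0 of them passed the test.

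*Arg1*, arginase 1, did not separate the groups. Its counts were 2249 at the lowest, 2898 at the median and 3543 at the highest in CTL tumors, and 2233, 2972 and 7819.6 in knockdown tumors. The last value is again knockdown tumor 1, the next being 3686 in tumor 5. This gave a log2 fold change of 0.25 (95% interval -0.27 to 0.77, adjusted p = 0.449 in limma), or 0.003 without knockdown tumor 1.

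*Mrc1*, the mannose receptor (CD206), had 1081, 1217 and 1604 as the lowest, median and highest counts in CTL and 1019, 1245 and 1899 in knockdown tumors. Knockdown tumors 1 and 3 were above the CTL range and tumor 6 below it. Its log2 fold change was 0.12 (95% interval -0.21 to 0.45, adjusted p = 0.575 in limma), and 0.02 and 0.03 without knockdown tumor 1 and knockdown tumor 3.

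*Cd163*, the haemoglobin scavenger receptor, was the rarest member and rose. It had 16.4, 42.4 and 55.9 normalized counts as lowest, median and highest in CTL and 49.97, 70.9 and 167 in knockdown tumors. All knockdown tumors were above the CTL median, 5 of them were above the CTL range, and tumor 3 was far above the rest. The log2 fold change was 1.06 (SE 0.34, 95% interval 0.34 to 1.78), with an adjusted p of 0.0205 in limma and an unadjusted p of 0.00866 in the exact permutation test. The adjusted p stayed under 0.05 without any single tumor, but the fold fell under the threshold of 1 without CTL tumor 3 (0.97), CTL tumor 5 (0.84) or knockdown tumor 3 (0.84).

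Of 20 alternative activation genes 2 rose, 1 fell and 17 did not pass, beside 21.1% higher and 20.7% lower of all genes, with a median log2 fold change of 0.21. Apart from *Cd163* the risen gene was *Retnla*, which encodes the secreted protein FIZZ1. It ran from a listed 0 in CTL tumor 5 to 25.0 in CTL and from 15.1 to 256 in knockdown tumors (log2 fold change 2.96, SE 0.80, adjusted p = 0.00849). *Il4ra*, a chain of the IL4 and IL13 receptors, fell by 0.39 (adjusted p = 0.000355). *Chil3* (1.23, adjusted p = 0.130), the scavenger receptor *Msr1* (-0.12, adjusted p = 0.650) and the lectin *Mgl2* (-0.31, adjusted p = 0.283) did not pass. The number of called genes in the list rose from 3 to 5 when knockdown tumor 1 or knockdown tumor 4 was left out.

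Of the pathway in which CD163 acts, 10 genes of haemoglobin scavenging and haem breakdown were read. Of these, 7 rose and 0 fell, beside 21.1% higher and 20.7% lower of all genes, with a median of 0.38. Without knockdown tumor 1, 6 were higher and 1 was lower. *Hp*, haptoglobin, rose by 0.94 (adjusted p = 0.0443), a call that was lost without CTL tumor 2, 3 or 6 or knockdown tumor 1, 2 or 3, with adjusted p up to 0.0958. *Hmox1*, haem oxygenase, rose by 0.68 (adjusted p = 0.00410), and the iron exporter *Slc40a1* by 0.39 (adjusted p = 0.00223).

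To compare the polarization genes with the pan-macrophage genes, the log2 value of *Adgre1*, *Csf1r* or *Cd68* in the same tumor was subtracted from that of every gene and the fit repeated. Over all genes, 4.72% were higher and 30.4% lower relative to *Adgre1*, 6.92% and 9.14% relative to *Csf1r*, and 6.45% and 34.1% relative to *Cd68*. Each reference passes its own error to every gene, so limma's p-values here share that error, and the exact permutation p of the ratio is given for the members that turned on it. The references did not all move alike. *Csf1r* was at -0.36 relative to *Adgre1* (adjusted p = 0.171 in limma, exact permutation p = 0.00649). In the reverse fit, *Adgre1* relative to *Csf1r* had an adjusted p of 0.0327 without knockdown tumor 1. *Cd68* was at -0.11 relative to *Adgre1* (exact permutation p = 0.632) and at 0.26 relative to *Csf1r* (exact permutation p = 0.134).

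*Nos2* rose relative to each of the 3 references. The log2 difference was 2.32 (95% interval 1.77 to 2.86) relative to *Adgre1*, 2.68 (2.14 to 3.22) relative to *Csf1r* and 2.42 (1.99 to 2.86) relative to *Cd68*. The exact permutation p was 0.00216 each time, and the groups did not overlap in any of these ratios. Per unit of *Adgre1* count, *Nos2* was 0.430 to 1.08 in CTL and 2.16 to 7.20 in knockdown tumors, and knockdown tumor 1 held the lowest of the latter.

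*Arg1* differed from the references by -0.22, 0.14 and -0.11, and *Mrc1* by -0.35, 0.01 and -0.24, none with an adjusted p under 0.05 in limma (lowest 0.190). The 95% intervals for *Arg1* ran from -0.74 to 0.29 relative to *Adgre1*, from -0.32 to 0.60 relative to *Csf1r* and from -0.53 to 0.30 relative to *Cd68*. Those for *Mrc1* ran from -0.79 to 0.09, from -0.39 to 0.42 and from -0.62 to 0.14. By the exact permutation test alone the ratio of *Mrc1* to *Adgre1* had p = 0.0173.

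*Cd163* gave mixed results. It was higher relative to *Csf1r* (0.95, adjusted p = 0.0433 in limma, exact permutation p = 0.0325), but omission of any 1 of 7 tumors (CTL tumor 3, 4 or 5, or knockdown tumor 3, 4, 5 or 6) ended the call, with adjusted p up to 0.151. Relative to *Adgre1* (0.59, adjusted p = 0.134) and *Cd68* (0.70, adjusted p = 0.0828) it did not pass.

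Among the other members, *Spp1* fell relative to all 3 references, with log2 differences of -1.80, -1.44 and -1.70. *Csf1* fell relative to *Adgre1* by 0.81 (adjusted p = 0.00754) and relative to *Cd68* by 0.70 (adjusted p = 0.00151), and its groups did not overlap in either ratio (exact permutation p = 0.00216). Relative to *Csf1r* it was -0.44 (adjusted p = 0.164). *Trem2* passed with no reference in limma. Its log2 difference was -0.48 relative to *Adgre1* (adjusted p = 0.0908, exact permutation p = 0.00433) and -0.37 relative to *Cd68* (adjusted p = 0.0913, exact permutation p = 0.0238), the latter with an adjusted p of 0.0275 without knockdown tumor 1. In all, 1 member was higher and 2 were lower of 9 relative to *Adgre1*, beside 4.72% and 30.4% of all genes. Relative to *Csf1r* 2 were higher and 1 lower, beside 6.92% and 9.14%. Relative to *Cd68* 1 was higher and 2 were lower, beside 6.45% and 34.1%. The share of all genes whose groups did not overlap in such ratios was not counted.

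**Figure D3:**
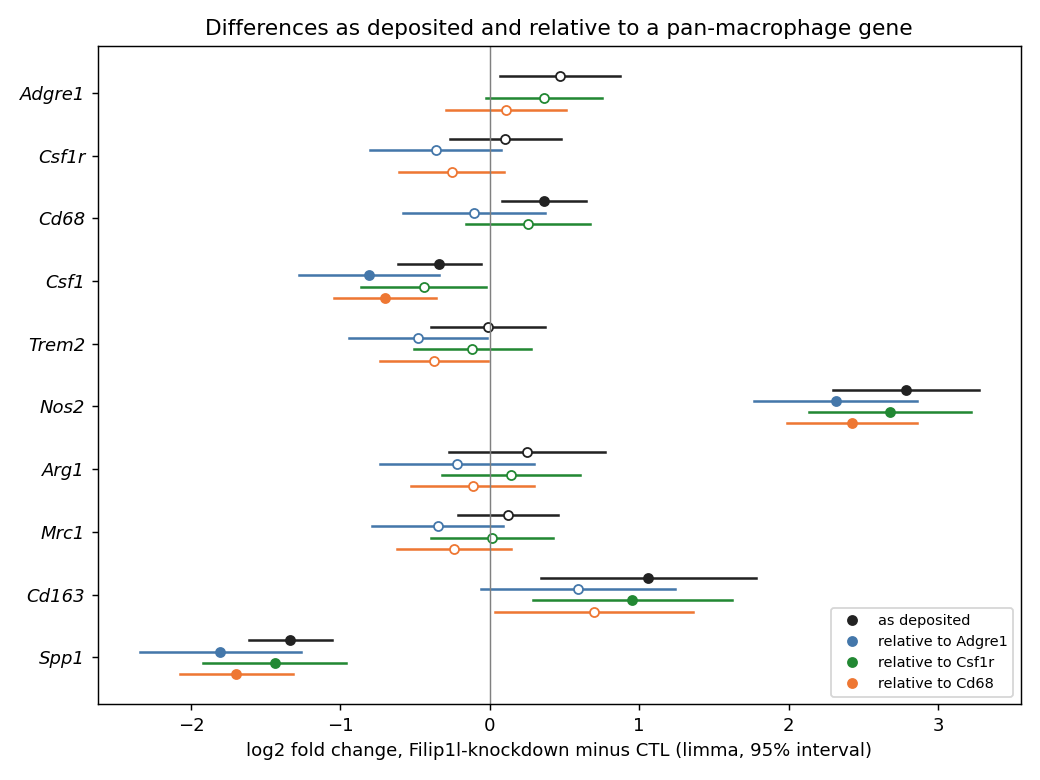
Log2 fold change of each member, *Filip1l*-knockdown minus CTL, as deposited (black) and after the log2 value of *Adgre1* (blue), *Csf1r* (green) or *Cd68* (orange) in the same tumor was subtracted; lines are limma 95% intervals, and filled points have an adjusted p under 0.05. *Nos2* stays near 2.3 to 2.8 and *Spp1* between -1.3 and -1.8 on every scale, while the lines of *Arg1* and *Mrc1* cross 0 on every scale.

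Levels of different genes were compared per kilobase of the principal transcript. In CTL tumors the order of mean levels was *Spp1*, *Arg1*, *Cd68*, *Csf1r*, *Csf1*, *Trem2*, *Mrc1*, *Adgre1*, *Nos2* and *Cd163*. Neighbors whose ranges over tumors overlapped were *Cd68* with *Csf1r*, and each adjacent pair from *Csf1* down to *Nos2*. In knockdown tumors *Nos2* had rank 3, after *Spp1* and *Arg1*, at 845 ± 299 (SD, n = 6) normalized counts per kilobase beside 119 ± 31.3 (SD, n = 6) in CTL. Its range then overlapped that of *Cd68* (809 ± 172, SD, n = 6). With lengths taken over all annotated exons *Nos2* moved from rank 8 to rank 4, and *Trem2*, which has long alternative exons, came to rank 9 in both groups. Per kilobase, *Arg1* was 9.51 to 25.3 times *Nos2* in CTL tumors and 1.64 to 7.72 times in knockdown tumors, knockdown tumor 1 having the highest of these.

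*Spp1* was the most abundant member and fell. Its mean over tumors exceeded that of 99.97% of all genes. CTL tumors had 147026 counts at the lowest, 184511 at the median and 198574 at the highest, and knockdown tumors had 48852, 73354 and 82063. The highest knockdown tumor (tumor 1) was thus far below the lowest CTL tumor. The log2 fold change was -1.34 (SE 0.13, 95% interval -1.61 to -1.06), with an adjusted p of 2.57e-06 in limma and an exact permutation p of 0.00216, and it remained between -1.39 and -1.23 without any single tumor. *Spp1* is made by carcinoma cells and fibroblasts as well as macrophages. Of 6 fibroblast markers 0 were higher and 2 were lower (*Col1a1* -0.76, *Col1a2* -0.97), beside 21.1% and 20.7% of all genes. The fibroblast median was -0.54, and without knockdown tumor 1 there were 5 markers lower and a median of -0.83. The fibroblast markers had a summed count of 159034 to 258613 in CTL, 74138.2 to 156783 in knockdown tumors 2 to 6 and 250941 in knockdown tumor 1. Their part in the *Spp1* result was not tested.

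Of 8 osteopontin receptor genes 1 rose and 4 fell, beside 21.1% higher and 20.7% lower of all genes, with a median of -0.24. *Itgb5* fell by 0.66 (adjusted p = 7.65e-06) and *Itgb3* by 0.55 (adjusted p = 0.00633), both partners of the αv chain. *Itga5* fell by 0.42 (adjusted p = 0.00343) and *Itgb1* by 0.35 (adjusted p = 0.000258), but with chromosome medians removed *Itgb1*, on chromosome 8, was at -0.15 (adjusted p = 0.106). *Itgav*, the αv chain itself, rose by 0.24 (adjusted p = 0.0183, or 0.0634 with tumors rescaled to the same total), and *Cd44* did not pass (0.15, adjusted p = 0.0636).

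*Trem2* did not differ detectably. Its lowest, median and highest counts were 255, 338 and 379 in CTL and 249, 293 and 574 in knockdown tumors, and without knockdown tumor 1, the highest, the log2 fold change went from -0.01 to -0.18 (adjusted p = 0.232). The 95% interval with all tumors was -0.39 to 0.37. Its signaling adaptor *Tyrobp* was at 0.20 (adjusted p = 0.253), while the kinase *Syk*, which acts below TYROBP, rose by 0.87 (adjusted p = 4.45e-05). Of the 16 genes of the lipid-associated and TREM2 list 6 rose and 3 fell, with a median of 0.15. Over all genes, 21.1% were higher and 20.7% lower. The risen genes with the largest changes were *Lpl*, lipoprotein lipase (1.30, adjusted p = 0.000546), the fatty acid transporter *Cd36* (1.13, adjusted p = 0.000156) and *Lgals3*, galectin-3 (1.00, adjusted p = 2.65e-05, or 0.62 with chromosome medians removed). The fallen genes were *Spp1*, the lipid droplet coat gene *Plin2* (-0.51, adjusted p = 0.000159) and *Cd9* (-0.23, adjusted p = 0.0107). Which cells of the whole tumors held the transcripts of this list was not tested.

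**Figure D4:**
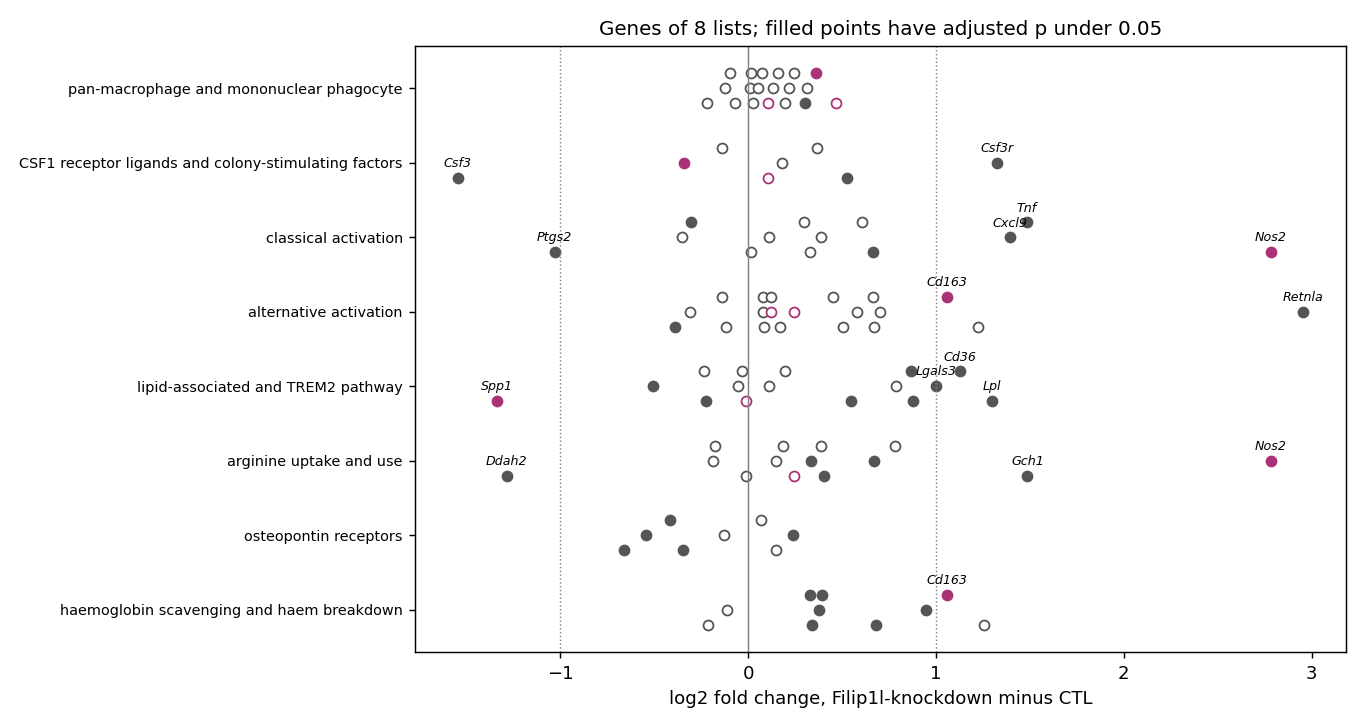
Log2 fold change of each gene of the 8 lists, *Filip1l*-knockdown minus CTL; each point is a gene, purple for the 10 members and grey for others, filled at an adjusted p under 0.05 in limma, and named where it also passed an absolute log2 fold change of 1 (dotted lines). The pan-macrophage row stays within 0.5 of 0, and *Nos2* and *Spp1* are the members farthest from it.

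Within the groups, the members did not all vary together. With group means removed, *Csf1r* varied most like *Adgre1* (Pearson r = 0.89 over 12 tumors) and *Trem2* (r = 0.88) among the members. *Nos2* showed little likeness to *Adgre1* (r = -0.01) or *Csf1r* (r = 0.03). These are descriptions over 12 tumors, in which knockdown tumor 1 weighs heavily and all genes of a tumor share its library. Among 12887 genes with a mean of at least 50, the closest to *Csf1r* were *Cd86*, *Cd300lf* and *Nckap1l* (all r = 0.97), those to *Trem2* were *Arhgap25* (0.99), *Fcgr3* and *Serpinf1* (both 0.97), and those to *Arg1* were *Trem1* (0.96), *Mmp12* and *Mmp13* (both 0.94). *Cd68* was closest to *Ncf4* (0.90), *Tyrobp* (0.89) and *Samsn1* (0.88), *Adgre1* to *Arhgap31*, *Adcy7* (both 0.94) and *Rnf150* (0.93), and *Mrc1* to *Notch3* (0.98), *Gfpt2* and *Zfp9* (both 0.96). The nearest genes to *Nos2* were *Mill2* (0.92), *Parp16* (0.90) and *Rnf115* (0.89), those to *Spp1* were *Rusc2* (0.96), *Ptprn* and *Wsb1* (both 0.94), those to *Csf1* were *Gpsm3* (0.92), *Gpx7* (0.90) and *Nnmt* (0.89), and those to *Cd163* were *Gm14410* (0.87), *B3galnt1* and *Prrg1* (both 0.85).

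Each of the other 7 members was also correlated with *Adgre1* inside each group of 6 tumors, 14 relations in all. None had a Benjamini-Hochberg adjusted p under 0.05, with exact permutation p-values over all 720 pairings. The closest were *Mrc1* (Pearson r = 0.93, exact permutation p = 0.0194, adjusted 0.136; Spearman rho = 0.83, p = 0.0583, adjusted 0.408) and *Trem2* (r = 0.93, exact permutation p = 0.0125, adjusted 0.136; rho = 0.83, p = 0.0583, adjusted 0.408) in knockdown tumors. Both rest on knockdown tumors 1 and 3, since without them r was 0.38 and 0.11. For *Nos2*, r was 0.03 in CTL (exact permutation p = 0.960, adjusted 0.960; rho = -0.09, p = 0.919, adjusted 1) and -0.04 in knockdown tumors (exact permutation p = 0.944, adjusted 0.960; rho = -0.03, p = 1, adjusted 1); without the tumors farthest from the median of *Adgre1* it was -0.76 and -0.27.

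Other leukocyte markers gave few calls. Of 6 monocyte markers 0 were higher and 2 lower (*Cx3cr1* -0.44, adjusted p = 0.0292, and *Vcan* -1.19, adjusted p = 0.000725). The median log2 fold change of the monocyte list was nevertheless 0.36. Among 9 dendritic cell markers and 7 T cell markers 0 passed in either direction. Among 5 mast cell markers 1 was higher (*Mcpt4* 2.61, adjusted p = 0.000221), while the median of that list was -0.27. *Cd79b* was higher as the 1 B cell marker of 4 in the table. Of 5 endothelial markers 4 were higher, and of 7 skeletal muscle markers 6. The shares of all genes were 21.1% higher and 20.7% lower.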

How the data were processed

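RNA was measured in 12 whole tumors, 6 per group, mapped by their labels. The authors trimmed reads with Trimmomatic 0.36, aligned them with STAR 2.5.2b and counted them per gene with featureCounts (Subread 1.5.2), per the labels' processing notes, which name mm10. The authors scaled the counts with DESeq2, by 1 size factor per tumor, and deposited the resulting signal, with no length correction. Values are whole multiples of 1 step per tumor, which gave the reads on listed genes (17834745 to 32419578) and the value of a floor of 3 reads (mean 3.15 in CTL, 2.91 in knockdown). In CTL tumors 1 and 4 and knockdown tumor 1 the step lies within 1% of 1, so whole reads were not taken as recovered and no count test was run. Floors cover counting error only. On this scaled signal limma replaced the study's count test.

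The log2 of the value plus a pseudocount of 1 was fitted with limma 3.58.1 (R 4.3.3), with a trend and Benjamini-Hochberg adjustment over 15687 genes. A filter at a mean of 5 removed 0 genes. Calls used an adjusted p under 0.05 and, where said, an absolute log2 fold change over 1. Fold changes on this scale understate those of low genes. Symbols, positions and lengths came from GENCODE vM21 on GRCm38, the genome of mm10, where 15661 identifiers (99.83%) were found. Exact tests are two-sided. Steps were tested on simulated data. The members and lists were chosen with earlier results of these data known. Named genes are the members, up to 3 genes per list and direction with the largest change at an adjusted p under 0.05, direct partners of members, markers, and the 3 genes most like each member. Members count among those 3. Named outside that rule, after their values were seen, were genes that did not pass, *Il1b*, *Slc40a1*, *Ctsb*, *Itgb1*, *Syk*, *Odc1* and *Asl*. Alternatives were pseudocounts of 0.5 and 8, no filter, a filter at a mean of 20, 2 rescalings, no trend, replicate number as a block, removal of chromosome medians or of GC and length trends, and leaving out each tumor. The same alternatives for lists and other genes were added after seeing the data. The labels name no sequencing batch. Figures used matplotlib 3.10.9. A few items are not reported here.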

Additional observations from a re-analysis of the deposited data

Results flagged for a closer look

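Of the 20 groups of 6 tumors (10 members in 2 groups), 5 held a tumor far from the other 5 by Dixon's test; chance alone flags about 1 in 20 groups. Knockdown tumor 1 was the one for *Csf1r* (4489.7 normalized counts, next 2807), *Arg1* (7819.6, next 3686) and *Trem2* (574, next 344). Knockdown tumor 3 was the one for *Cd163* (167, next 77.0), and CTL tumor 3 for *Cd68* (942, next 762).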

How the results depend on the processing

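The counts of called genes and members stayed within 1.5 times their value under every alternative run: 1596 genes passed both thresholds over the whole table, with 1352 (pseudocount 8) to 1713 (without knockdown tumor 1) elsewhere, and 2 to 3 members did. *Nos2* and *Spp1* kept direction and call in all of them. The call of *Cd68* was lost in 6 of the 10 alternatives that keep all tumors, with adjusted p up to 0.116 (GC content and length trends removed), and that of *Csf1* in 2 of 10 (up to 0.0733, limma without a trend). *Cd163* had a log2 fold change of 0.92 with a pseudocount of 8. Relative to *Csf1r* its call was also lost with that pseudocount (0.0550) and without a trend (0.0640). Replicate numbers did not pair tumors: correlations between same-numbered tumors, group means removed, were -0.269 to 0.0990. With replicate number as a block, 1554 genes and 2 members passed both thresholds, and the adjusted p was 0.0503 for *Cd163*, 0.0567 for *Cd68*, 0.0499 for *Csf1* and 0.0214 for *Adgre1*.

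Signs turned only for values near 0. Leaving out 1 tumor in turn gave *Csf1r* -0.0629 to 0.174, *Trem2* -0.179 to 0.0609, *Mrc1* relative to *Csf1r* -0.0506 to 0.0874, *Cd68* relative to *Adgre1* -0.230 to 0.0208, *Adgre1* relative to *Cd68* -0.0208 to 0.230 and *Slc7a1* -0.0398 to 0.0478. *Slc7a1* was 0.0021 with chromosome medians removed and 0.0713 with GC content and length trends removed, and *Slc7a2* was 0.0139 with chromosome medians removed, the median of its chromosome 8 being -0.198; the cause for *Slc7a1* was not tested. Of genes that are no members, *Hp* lost its call in 4 of 10 alternatives that keep all tumors (up to 0.0829), and *Ctsb* had 0.17 (adjusted p = 0.0507) with chromosome medians removed. *Csf3* had -0.94 with a pseudocount of 8. Depth limits *Cd163*, *Retnla*, *Csf3*, *Il6*, *Il12b*, *Arg2*, *Chil3*, *Nkx2-1*, *Sftpc* and *Sftpb*, each with 11 or fewer reads in the lowest tumor.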
